A study of Mus musculus with 6 samples.

Results

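The 7 genes described here carry vitamin B12 (cobalamin) into the cell, free it in the lysosome and use it: Tcn2, Cd320, Lmbrd1, Abcd4, Mmachc, Mtr and Mtrr. They were taken by gene symbol from a table of 12023 genes, and 6 of the 7 have a row there. Cd320, which encodes the receptor for the carrier, is not among the genes analysed here, under its symbol or its synonyms. Tcn2 was chosen by its measured strain difference, as it was among the 18 genes called different between the strains in the comparison described here. The other genes were added for their role in the same route. The cells were primary fibroblasts of the mammary fat pad from healthy BALB/c and C57BL/6 females of 8 to 12 weeks, with no transgene or treatment named in the labels. They were grown on collagen for 4 days, and each strain gave 3 biological replicates. Reads were counted by gene in libraries made from mRNA 3′ ends, and the design text gives the baseline difference between the strains as the question.

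Cobalamin travels in blood bound to transcobalamin, the product of Tcn2, a protein that many cell types secrete, fibroblasts and endothelial cells among them. The complex is taken up through the receptor CD320, the carrier is degraded in the lysosome, and LMBD1 and ABCD4, encoded by Lmbrd1 and Abcd4, export cobalamin to the cytosol. There MMACHC strips its upper ligand, and the vitamin serves methionine synthase (Mtr) in the cytosol or methylmalonyl-CoA mutase (Mmut) in mitochondria.

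The libraries held 1035485 to 4665896 counts. In the shallowest of them 3 counts correspond to 2.90 CPM (the count relative to the library total scaled by the TMM method), in the deepest to 0.612 CPM. C57BL/6 replicate 1 stood apart, with a mean correlation of log2 CPM across genes with the other 5 libraries of 0.779, against 0.870 to 0.910 for the others. Of the 11 fibroblast markers 10 are in the table and were counted in every library, with summed levels of 9450 to 18900 CPM in BALB/c and 4540 to 20700 CPM in C57BL/6. Mammary epithelial markers were present too, at 1670 to 9920 and 2830 to 15700 CPM, so the cultures were not pure fibroblasts. In such bulk RNA, fewer cells of a type and less RNA per cell cannot be told apart.

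Tcn2, the carrier, was close to the detection limit in BALB/c and well counted in C57BL/6. BALB/c replicates 1, 2 and 3 had 6, 7 and 10 counts of Tcn2, which are 4.00, 2.51 and 9.68 CPM. C57BL/6 replicates 1, 2 and 3 had 307, 160 and 668 counts of Tcn2, or 235, 125 and 136 CPM. All 3 BALB/c libraries lay below all 3 C57BL/6 libraries, and the lowest C57BL/6 library was 12.9 times the highest BALB/c library. Relative to the level, the exact 95% counting intervals of Tcn2 were wider in BALB/c, for example 1.01 to 5.16 CPM in replicate 2, than in C57BL/6, for example 126 to 147 CPM in replicate 3. They cover counting error only.

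The mean level of Tcn2 was 165 ± 60.2 CPM in C57BL/6 against 5.40 ± 3.78 CPM in BALB/c (SD over 3 libraries each). The fitted log2 difference, BALB/c minus C57BL/6, was -5.07 with a standard error of 0.555 and a 95% interval of -6.37 to -3.76, a level 33.5-fold higher in C57BL/6. Summed over libraries, 23 counts stood against 1135, a ratio of 35.1 per scaled library size, for which counting alone allows 23.3 to 55.6. By size, the difference of Tcn2 ranked 10th among 8752 tested genes, and 5th among those lower in BALB/c. It is given as a description without a test, since the gene was chosen for this difference: edgeR's quasi-likelihood fit gave the adjusted p = 0.0275 that put it among the 18 called genes. That call was not stable to the loss of a library. Without C57BL/6 replicate 1 it was kept, and without any other single library it was lost, with edgeR adjusted p from 0.0522 to 0.244 and log2 differences from -5.69 to -4.63.

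**Figure D1:**
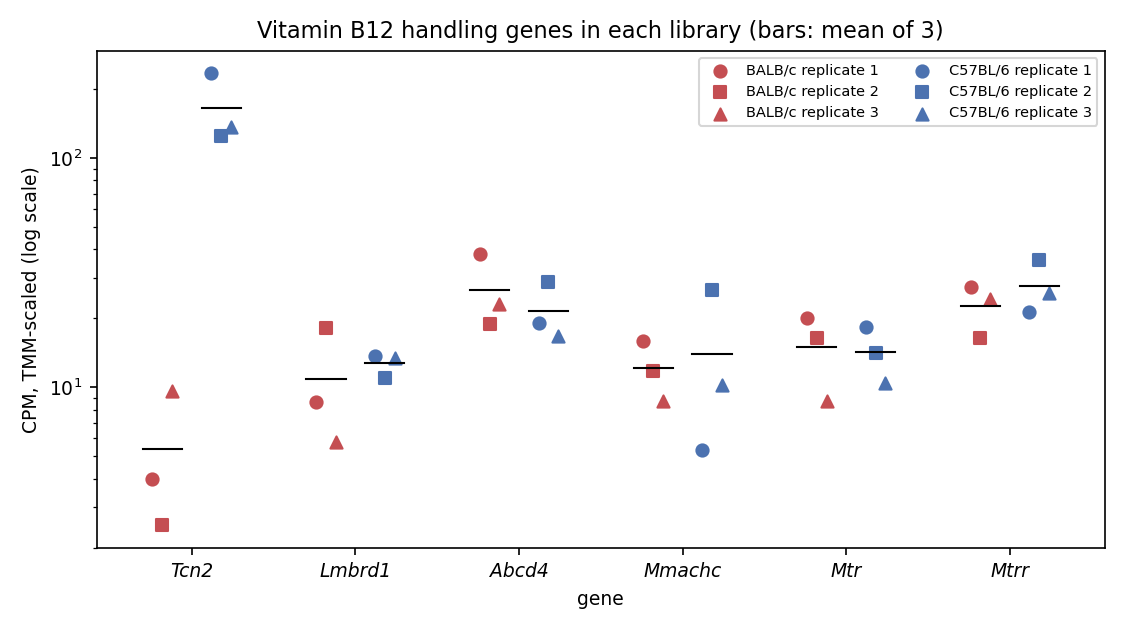
Level of each vitamin B12 handling gene in CPM on a log axis, with a point for each of the 6 libraries, coloured by strain, and a bar for the mean of the 3 libraries of a strain. Tcn2 lies at 2.51 to 9.68 CPM in BALB/c and 125 to 235 CPM in C57BL/6, while the strains overlap in the other 5 genes.

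Markers of other cells were set beside Tcn2. Of the 10 macrophage markers, 8 could be tested and 0 were called in edgeR, where 0.206% of all tested genes were. All 10 were in the table and all had a lower mean in BALB/c, where 48.9% of all tested genes were lower. Their summed levels were 625 to 906 CPM in BALB/c and 850 to 1650 CPM in C57BL/6, which overlap, and the strains did not overlap in 4 of the 10 (Cd68, Fcer1g, C1qa and C1qb), all lower in BALB/c, where 6.22% of all tested genes were lower without overlap. The defining leukocyte marker Ptprc had 2, 3 and 2 counts in BALB/c and 0, 5 and 18 in C57BL/6, and the macrophage marker Adgre1 5, 9 and 0 against 2, 9 and 43. In CPM, Ptprc was at 1.334, 1.074 and 1.935 against 0, 3.908 and 3.673. Adgre1 was at 3.335, 3.221 and 0 CPM against 1.528, 7.034 and 8.774 CPM, and both were too low to test. Of the 10 endothelial markers 9 were in the table, with summed levels of 50.5 to 93.9 and 75.7 to 134 CPM. Of these 9, 7 had a lower mean in BALB/c, 5 could be tested and 0 were called in edgeR. The strains did not overlap in Vwf, which was too low to test. Vwf had 0, 3 and 2 counts in BALB/c against 18, 7 and 13 in C57BL/6. These are 0, 1.074 and 1.935 CPM against 13.75, 5.471 and 2.653 CPM. The highest macrophage, endothelial and epithelial sums, the lowest fibroblast sum and the highest Tcn2 were all in C57BL/6 replicate 1. Within BALB/c, replicate 2 had the lowest Tcn2 with the highest epithelial sum. It also had the lowest macrophage, endothelial and fibroblast sums of that strain. The part of these cells in the level of Tcn2 was not tested. The epithelial sum was lowest in BALB/c replicate 1 and C57BL/6 replicate 2, at 1670 and 2830 CPM, and Tcn2 stood at 4.00 and 125 CPM in these libraries. Of the 7 adipocyte markers Fabp4, Pparg and Lpl were in the table, with sums of 48.7 to 61.6 and 57.8 to 75.7 CPM.

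Tcn2 lies on the minus strand of chromosome 11, from 3917192 to 3932159 on GRCm38, as a protein-coding gene (ENSMUSG00000020432) with 7 annotated transcripts. No exon of another annotated gene overlaps its exons. The last 500 nt of its longest protein-coding transcript matched no transcript of another gene over 60 nt or more at 95% identity or more.

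The tested genes around Tcn2 had far smaller differences. As Tcn2 was chosen for its strain difference, this is likely for any genes not so chosen, and it is a description. Within 250 kb, 11 genes have a row in the table and 8 could be tested, of which 4 were higher and 4 lower in BALB/c and none passed edgeR's threshold (0 of 8, lowest adjusted p = 0.954, none under an unadjusted p of 0.05). Over all 8752 tested genes 0.206% passed and 3.86% had an unadjusted p under 0.05, so a count of 0 of 8 is near the background. Their log2 differences ran from -0.34 to 0.30, and the strains overlapped in all 8, where 11.4% of all tested genes did not overlap. Slc35e4, a solute carrier gene 2.5 kb away on the same strand, had a log2 difference of -0.34 ± 0.52 (SE). Its level was 32.7, 55.8 and 43.5 CPM in BALB/c and 101, 24.2 and 43.9 CPM in C57BL/6. Dusp18, a dual-specificity phosphatase gene 15.9 kb away, had -0.03 ± 0.38. On the other side Pes1, which acts in ribosome assembly, lay 31.8 kb away with 0.04 ± 0.24. Farther out, the lipid-binding protein gene Sec14l2 had -0.09 ± 0.69, Rnf215 0.30 ± 0.33, Ccdc157 0.18 ± 0.49, the splicing factor gene Sf3a1 -0.32 ± 0.39 and Morc2a 0.21 ± 0.31.

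**Figure D2:**
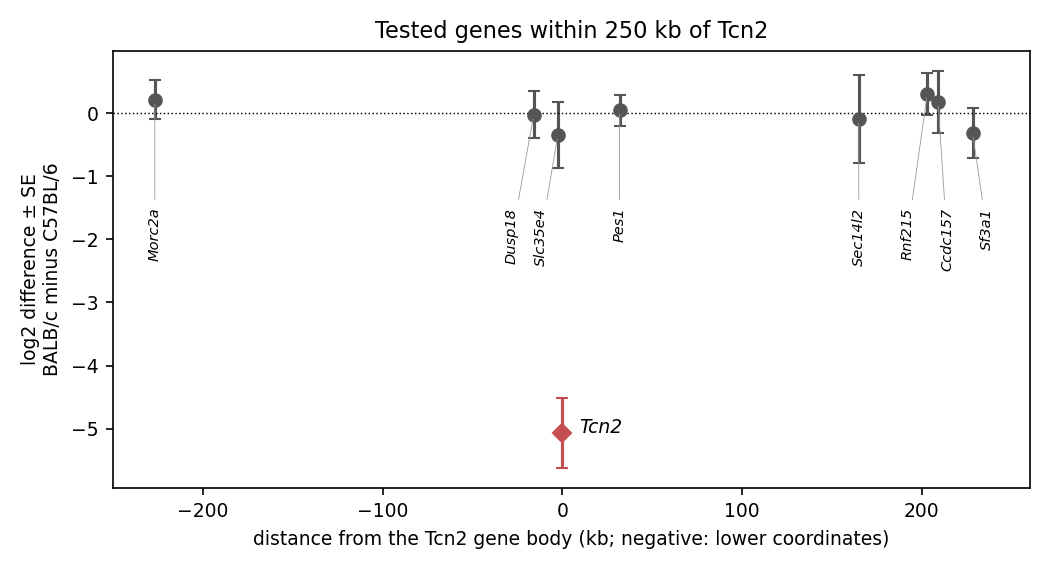
Log2 difference and standard error (BALB/c minus C57BL/6) of Tcn2 (diamond) and the 8 tested genes within 250 kb (circles), against the distance in kb from the Tcn2 gene body. Tcn2 stands at -5.07, and its neighbours lie between -0.34 and 0.30. Tcn2 was chosen for its strain difference, so the contrast is a description and not a test.

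Downstream of the carrier, 0 of the 5 other listed genes with a row passed the threshold in edgeR, where 0.206% of the 8752 tested genes did (18 genes). None of the 5 had an unadjusted p under 0.05, where 3.86% of all tested genes did. The strains overlapped in all 5, where 11.4% of all tested genes did not overlap. Each count of 0 of 5 is near the background. The median log2 difference of the 5 was -0.17, against 0.01 over all tested genes, with 2 higher and 3 lower in BALB/c. The 95% interval of each spans 0 and reaches 1 or more on the log2 scale on at least 1 side. A change of that size in that direction was thus not excluded. In 71 refits of these 5 genes under the alternatives, 0 passed, and the lowest adjusted p was 0.620.

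The lysosomal exporters had few counts. Lmbrd1 was at 8.67, 18.2 and 5.81 CPM in BALB/c replicates 1, 2 and 3 and at 13.7, 10.9 and 13.5 CPM in C57BL/6. The BALB/c libraries spread over 3.14-fold and enclose all 3 C57BL/6 libraries. Its log2 difference was -0.18 with a 95% interval of -1.35 to 1.00 (edgeR adjusted p = 0.967), and it was -0.80 without BALB/c replicate 2, still far from the threshold. Abcd4, an ATP-binding cassette transporter of the lysosome, was at 38.0, 19.0 and 23.2 CPM in BALB/c and at 19.1, 28.9 and 16.7 CPM in C57BL/6. The highest value was in BALB/c replicate 1 and the lowest in C57BL/6 replicate 3, with the others mixed between them. Its log2 difference was 0.32, with an interval of -0.63 to 1.26 (edgeR adjusted p = 0.954). Under the limits above, the 3′ ends of both share stretches with transcripts of other genes. These are 27 genes for Lmbrd1 and 48 for Abcd4, over at most 155 and 160 nt. Their counts may be affected, which was not tested.

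Mmachc, the enzyme that processes incoming cobalamin, varied most among the C57BL/6 libraries. It was at 16.0, 11.8 and 8.71 CPM in BALB/c and at 5.35, 26.6 and 10.2 CPM in C57BL/6, a spread of 1.84-fold against 4.97-fold. Both the lowest and the highest of the 6 values were in C57BL/6, replicates 1 and 2. Its log2 difference was -0.17, with an interval of -1.64 to 1.29 (edgeR adjusted p = 0.971), and leaving out single libraries gave -0.52 to 0.60.

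For Mtr, methionine synthase, and Mtrr, the reductase that reactivates it, no strain difference was called. Mtr was at 20.0, 16.5 and 8.71 CPM in BALB/c and at 18.3, 14.1 and 10.4 CPM in C57BL/6. In either strain replicate 1 was high and replicate 3 low, and the ranges were nearly the same. The log2 difference of Mtr was 0.12, with an interval of -0.94 to 1.17 (edgeR adjusted p = 0.973). Mtrr was at 27.4, 16.5 and 24.2 CPM in BALB/c and at 21.4, 36.0 and 25.7 CPM in C57BL/6. BALB/c replicate 2 was the lowest library and C57BL/6 replicate 2 the highest. The log2 difference of Mtrr was -0.29, with an interval of -1.14 to 0.55 (edgeR adjusted p = 0.954), and a stretch of 60 nt of its 3′ end also occurs in Eif2a.

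The other listed genes with a row lie apart in the genome. On GRCm38, Lmbrd1 is on chromosome 1 (24678630 to 24766301), Abcd4 on chromosome 12 (84601464 to 84617413) and Mmachc on chromosome 4 (116702279 to 116708406). Mtr and Mtrr are both on chromosome 13, from 12182712 to 12258113 and from 68560780 to 68582149. No exon of another annotated gene overlaps theirs.

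Hcfc1, Thap11 and Zfp143 encode a co-activator and 2 DNA-binding factors known to act on the promoter of Mmachc, and a motif of ACTACA, any 2 bases and TCC is known for such factors. It was searched on both strands of RefSeq promoter windows on GRCm38.p6, each from 250 bases before to 50 after a gene's start. Windows matched 5 of the 7 genes, Cd320, Lmbrd1, Mmachc, Mtr and Mtrr, and those of Tcn2 and Abcd4 were not used here. The motif occurred in Mmachc and Mtr, 2 of these 5 genes. Over all genes it occurred in 2.27% of 27025 genes and in 1.98% of 32851 windows. The 70 bases around each match are shown on the gene's strand with the match in capitals, because these are the 2 listed genes that hold it. The match lies on the opposite strand 12 bases before the start of Mmachc (chr4:116708386-116708455, minus strand) and on the gene's strand 180 bases before the start of Mtr (chr13:12258265-12258334, minus strand).
Mmachc: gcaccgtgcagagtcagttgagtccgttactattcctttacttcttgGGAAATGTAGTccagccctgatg
Mtr: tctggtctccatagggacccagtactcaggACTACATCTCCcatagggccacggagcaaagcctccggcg
A match is a description of the letters and not a bound site. The levels of Mmachc and Mtr given above overlapped between strains, and so did those of the 3 factor genes. Hcfc1 had a log2 difference of 0.21 ± 0.30 (SE), Thap11 0.63 ± 0.63 and Zfp143 0.28 ± 0.54, with an edgeR adjusted p of 0.954 for each.

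Other genes of cobalamin handling did not pass the threshold either. Of 14 listed, 10 have a row in the table and 9 could be tested, 6 higher and 3 lower in BALB/c, with 0 called in edgeR, where 0.206% of all tested genes were, and 0 under an unadjusted p of 0.05. Their median log2 difference was 0.21, against 0.01 over all tested genes. The median became -0.03 without C57BL/6 replicate 1. Mmut, methylmalonyl-CoA mutase, the mitochondrial enzyme that uses adenosylcobalamin, had 13, 24 and 12 counts in BALB/c and 0, 10 and 22 in C57BL/6. Its levels were 8.67, 8.59 and 11.6 CPM against 0, 7.82 and 4.49 CPM, so all BALB/c libraries lay above all C57BL/6 libraries. The log2 difference of Mmut was 1.19 ± 0.86 (edgeR adjusted p = 0.954), and 0.69 without C57BL/6 replicate 1, the library with 0 counts. A count of 0 there allows up to 2.29 CPM.

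Clybl, the mitochondrial citramalyl-CoA lyase, whose loss in humans goes with low plasma B12, was the other gene of this list whose strains did not overlap, which makes 2 of 9, where 11.4% of all tested genes did not overlap. It was at 8.00, 8.23 and 4.84 CPM in BALB/c and at 9.17, 17.2 and 15.9 CPM in C57BL/6. Clybl had -0.98 ± 0.46 on the log2 scale (edgeR adjusted p = 0.954). Mmadhc, which directs cobalamin to the cytosolic or mitochondrial enzyme, was at 94.0, 73.7 and 94.8 CPM in BALB/c and at 12.2, 89.9 and 86.5 CPM in C57BL/6. C57BL/6 replicate 1 alone was low. Its log2 difference was 0.46 ± 0.63, and -0.03 without that library. Thap11 showed the same layout, with 9.17 CPM in C57BL/6 replicate 1 against 59.0 to 88.7 CPM in the other libraries, and its log2 difference was 0.15 without it. Mmab, the adenosyltransferase, had a log2 difference of -0.34 ± 0.42, Mcee, the epimerase before the mutase, 0.08 ± 0.38, and Abcc1, an export transporter that also carries cobalamin, -0.21 ± 0.46. Cubn had too few counts to test. Amn, Lrp2, Cblif and Mmaa are not among the genes analysed here.

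**Figure D3:**
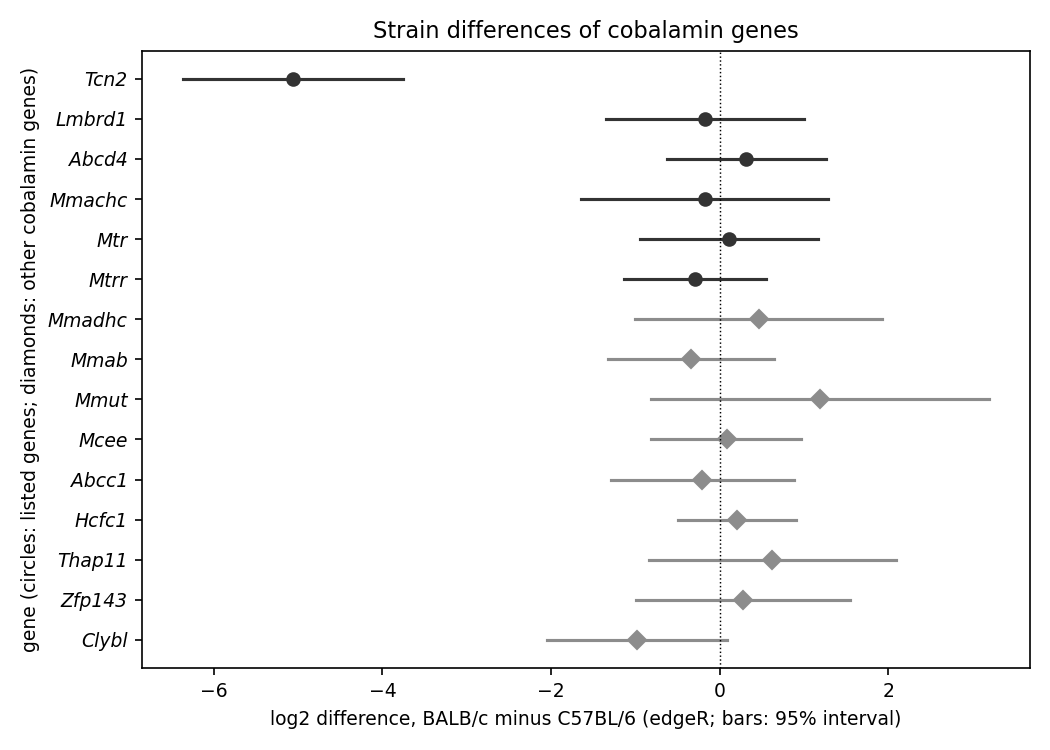
Log2 difference (BALB/c minus C57BL/6) and 95% interval from edgeR for the 6 listed genes with a row in the table (circles) and 9 other cobalamin genes (diamonds). The interval of Tcn2, -6.37 to -3.76, lies apart, and the other 14 span 0. Tcn2 was chosen for its strain difference, so its place is a description and not a test.

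The pathways fed by the cobalamin enzymes held no called gene. Over the lists of other cobalamin genes, the methionine cycle, the folate cycle and propionate oxidation, 47 genes were tested, 28 higher and 19 lower in BALB/c, and 0 passed in edgeR (1 under an unadjusted p of 0.05, or 2.13%, against 3.86% of all tested genes). That gene was Mri1, of methionine salvage, at -0.73 ± 0.31 on the log2 scale (edgeR adjusted p = 0.954), and it is named because of its value. The strains did not overlap in 10.6% of the 47, close to the 11.4% over all tested genes.

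Of 14 tested genes of the methionine cycle 9 were higher and 5 lower, with a median log2 difference of 0.18. Srm, spermidine synthase, had a log2 difference of -0.40 ± 0.27, Mat2a, which makes S-adenosylmethionine, -0.34 ± 0.27, Mtap, of methionine salvage, 0.63 ± 0.59, and Enoph1, of the same salvage route, -0.08 ± 0.27. Of 18 tested genes of the folate cycle 8 were higher and 10 lower, with a median of -0.04. Shmt2, the mitochondrial serine hydroxymethyltransferase, had -0.17 ± 0.47, Mthfd2 0.20 ± 0.49, and the purine synthesis genes Atic and Gart -0.46 ± 0.33 and -0.45 ± 0.31. Atic and Gart were both highest in C57BL/6 replicate 1, at 323 and 194 CPM.

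Propionate oxidation, the route through methylmalonyl-CoA mutase, had 6 tested genes, 5 higher and 1 lower in BALB/c, with a median log2 difference of 0.34 and 0 past the threshold in edgeR. Suclg1, a subunit of succinyl-CoA ligase, was at 240, 217 and 216 CPM in BALB/c and at 113, 189 and 167 CPM in C57BL/6. All BALB/c libraries lay above all C57BL/6 libraries, and Suclg1 had 0.52 ± 0.26 on the log2 scale (edgeR adjusted p = 0.954). Acsf3, a mitochondrial acyl-CoA synthetase gene named because of its values, went the other way without overlap. It was at 15.3, 7.87 and 11.6 CPM in BALB/c and at 25.2, 17.2 and 18.6 CPM in C57BL/6, or -0.82 ± 0.41 on the log2 scale (edgeR adjusted p = 0.954). These are 2 of the 6 genes, where 11.4% of all tested genes did not overlap. Sucla2, another subunit of that ligase, had 2 counts in C57BL/6 replicate 1, and its log2 difference of 0.68 ± 0.86 was 0.13 without that library. Hibadh, of valine breakdown, had 0.16 ± 0.53 and Pccb, a subunit of propionyl-CoA carboxylase, 0.06 ± 0.34. The median of the list was 0.18 without C57BL/6 replicate 1.

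C57BL/6 replicate 1 held the lowest level of 25 of the 47 genes of these lists, or 53.2%, where it held the lowest level of 38.8% of all tested genes. It also held the highest level of 12 of the 47, or 25.5%, where it held the highest level of 35.2% of all tested genes. Low values in that library lower the C57BL/6 mean of a gene, and high values raise it.

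**Figure D4:**
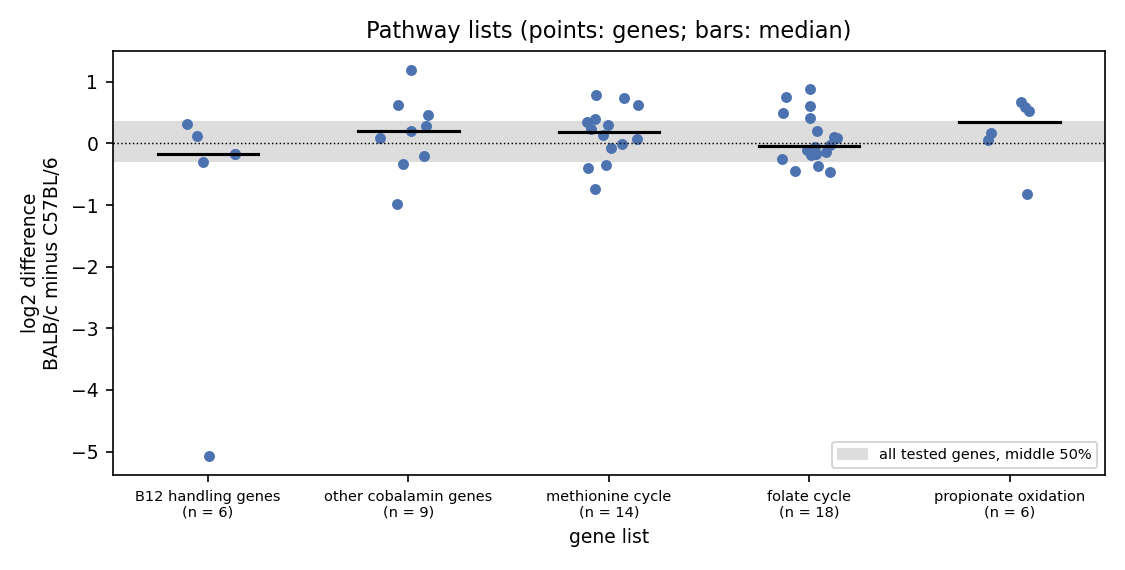
Log2 difference, BALB/c minus C57BL/6, of each tested gene (points) in the vitamin B12 handling genes and 4 pathway lists, with the median of each list as a bar and the middle 50% of all tested genes, -0.29 to 0.34, as a grey band. Tcn2 at -5.07, chosen for its strain difference, is the point far below, and the medians of the 5 lists lie between -0.17 and 0.34.

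The genes with the pattern most like that of Tcn2 were sought among 4452 tested genes whose mean log2 CPM was 5 or more, by Pearson's r of log2 CPM over the 6 libraries. They included Tgm2, a transglutaminase (r = 0.994), Plpp1, a lipid phosphatase (0.989), Cnn1, calponin (0.988), and Lpin3, a phosphatidate phosphatase of the lipin family (0.988). These values describe 6 points that fall into 2 strains, and the points share library and depth. In these 4 the strains did not overlap, which the choice by likeness to Tcn2 makes likely. Their differences were far smaller than that of Tcn2, which was chosen for its strain difference. The log2 differences of these genes were -1.11 ± 0.23, -1.51 ± 0.25, -1.25 ± 0.25 and -0.77 ± 0.27 in the same order. Tgm2, for example, was at 179, 182 and 226 CPM in BALB/c and at 471, 375 and 419.7 CPM in C57BL/6.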

How the data were processed

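Raw counts by gene symbol were deposited by the authors as 1 table covering all 6 libraries, whose columns were matched to samples by library name. The submitters' processing notes list bcl2fastq, HTSeq, STAR 2.4.2a and the genome build mm10, without settings or annotation. That genome is of C57BL/6, and whether BALB/c reads of Tcn2 were lost in alignment was not tested.

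The whole table was fitted with edgeR 4.0.16 in R 4.3.3. Of 12023 genes, filterByExpr left 8752, TMM factors were 0.866 to 1.06, and strain was the sole term of a robust quasi-likelihood fit. Tests were two-sided, with Benjamini-Hochberg adjustment over all tested genes and a threshold of 0.05. Standard errors are the log2 difference divided by the root of F. Simulated counts for the comparison of the strains had 8752 genes, 8291 of them tested, with 200 changed at each size. The fit gave back 45% of changes of 2 and 96% of changes of 5 on the log2 scale, with 7 false calls. More genes were changed there than were called in the data, so these shares need not hold for the data. Alternatives used DESeq2 1.42.0 and limma 3.58.1, and copies were searched with BLAST+ 2.17.0 in GENCODE vM21 transcripts.

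The genes and lists were chosen with earlier results of these data known. Named were the 7 genes, the tested other cobalamin genes, the 4 with the highest mean log2 CPM and any called gene of each other list, the tested genes within 250 kb of Tcn2 and the 5 most like it, of which 1 is not reported here. Replicates are biological per the design text. Whether the shared replicate numbers pair libraries is not known, and the main fit did not pair them.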

Additional observations from a re-analysis of the deposited data

How the results depend on the processing

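Tcn2 kept its direction in all 15 alternatives, with log2 differences of -5.69 to -4.63, and it was among the called genes in 8 of them, by edgeR with each other scaling and filter, DESeq2, limma-voom with library quality weights, and without C57BL/6 replicate 1. It was not called by limma-voom without weights (adjusted p = 0.113). Tcn2 was chosen by this same contrast in these data. The refits thus describe how far its value moves and give no separate support. The other 5 listed genes were not called in any alternative that could test them. The count of called genes, 18, became 11 with library totals alone, 71 with DESeq2, 3 with limma-voom and 57 with library quality weights, and 0 to 25 when single libraries were left out. It was 0 in edgeR when C57BL/6 replicate 3, BALB/c replicate 2 or BALB/c replicate 3 was left out, with 261, 205 and 226 genes under an unadjusted p of 0.05, and 4 and 5 without BALB/c replicate 1 and C57BL/6 replicate 2. The cause was not tested. With the replicate block 0 genes passed in edgeR (158 under an unadjusted p of 0.05), and Tcn2 had a log2 difference of -5.07. Libraries with the same number did not deviate together, with correlations of -0.419, -0.397 and -0.077 across genes. Deviations from a mean of 3 libraries cannot exclude a pairing, so whether the numbers pair the samples is not known. Among the genes most like Tcn2, Tgm2, Plpp1 and Cnn1 passed with DESeq2 (adjusted p = 0.00125, 4.93e-05 and 0.00145), and Tgm2 and Plpp1 also with library quality weights. The median of the propionate list was above 0 in all 15 alternatives, and the medians of the other 3 pathway lists changed sign in at least 1. Low counts and the spread among replicates both limit the listed genes. Those other than Tcn2 had 66 to 134 counts in BALB/c over 3 libraries, and Tcn2 had 23.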
